A study of Mus musculus with 6 samples.

Results

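The NRF2 oxidative stress response is described here through 10 genes in early LPre-B cells (large B cell precursors of mouse bone marrow that have not reached the small pre-B stage). The genes were chosen by symbol, through their Entrez IDs: *Nfe2l2*, *Keap1*, *Hmox1*, *Nqo1*, *Gclc*, *Gclm*, *Srxn1*, *Prdx1*, *Txn1* and *G6pdx*. A row was found for 8 of the 10 among the 13426 genes of the table, and *Nqo1* and *Srxn1*, which have no row, were not analysed here. Every row had a value above 0.5 in at least 3 libraries, so a gene could enter the table through the group in which it was higher, and counts over the 8 are given as a description. Ctrl mice (Upf1 Flox/Flox, Mb1 +/+) and Upf1-cKO mice (Upf1 Flox/Flox, Mb1 Cre/+) both carried the floxed allele, with 3 libraries per group from mice 8 to 16 weeks old of both sexes. In Upf1-cKO mice, Cre expressed from the Mb1 (*Cd79a*) locus in B lineage cells removes exons 4 to 6 of *Upf1*, an RNA helicase of nonsense-mediated mRNA decay (NMD). Ctrl mice carry no Cre and have both copies of *Cd79a* intact, so loss of UPF1 and the effects of Cre or of the interrupted *Cd79a* copy cannot be told apart. The sorting gate included B220+, surface IgM-, CD43+, CD2- and large cells, after cells positive for CD3e, CD11b, CD11c, F4/80 or TER-119 were gated out.

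NRF2, the product of *Nfe2l2*, is a transcription factor that turns on genes for the removal of oxidants. In unstressed cells KEAP1, an adaptor of a CUL3 ubiquitin ligase, binds NRF2 and has it degraded, and oxidants that modify KEAP1 release it. NRF2 then pairs with a small MAF protein at antioxidant response elements, and its targets make glutathione, reduce peroxides through thioredoxin and peroxiredoxin, supply NADPH and break down heme. Much of this control acts on the protein, which transcript levels do not measure.

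Values are normalised reads, which are reads plus 0.5 per 1e6 reads of the effective library size, and libraries held between 9732498 and 11006834 reads. *Upf1* itself, counted over the whole gene, was at 241 ± 32.3 in Ctrl and 297 ± 12.7 in Upf1-cKO libraries (SD, n = 3 per group, log2 fold change 0.31, adjusted p 0.00696). The row sums the whole gene, whose locus overlaps *Gdf1* and *Cers1*, and does not resolve the removed exons, so it does not check the labels. The known NMD targets *Gas5*, *Gadd45b* and *Ddit3*, chosen with their results known, were above every Ctrl library in each Upf1-cKO library (2.33, 1.96 and 3.29 on the log2 scale), although *Gas5* and *Ddit3* overlap other annotated genes. All 14 early B markers had a row (6 higher, 4 lower), from *Cd79a* at -1.58 to *Rag1* at 1.55 and *Dntt* at 1.64 on the log2 scale, and they summed to between 3556 and 3915 in Ctrl and between 3808 and 4116 in Upf1-cKO libraries. Of 10 neutrophil markers 5 were higher, among them *S100a8*, *S100a9* and *Ltf*, and 5 did not pass, where 27.7% of all genes were higher. In 8 of the 10 every Upf1-cKO library was above every Ctrl library (30.9% of all genes). The groups overlapped for *Mpo* and *Prtn3*, named after their values were seen. The 10 markers summed to 129.7, 19.9 and 14.99 in Ctrl libraries 1, 2 and 3 against 480, 369 and 344 in the Upf1-cKO libraries. CD11b+ cells had been gated out of the sort. The part of these transcripts in the results below was not tested. Macrophage markers, which matter for *Hmox1*, summed to between 34.6 and 60.9 in Ctrl and between 58.4 and 79.3 in Upf1-cKO libraries over the 4 of 11 with a row, of which 1 (*Lyz2*) was higher. *Lyz2*, which neutrophils also express, made up most of this sum, and the other 3 summed to between 7.49 and 13.5 in Ctrl and between 7.54 and 10.7 in Upf1-cKO libraries. In bulk RNA, fewer cells of a type and less RNA per cell cannot be told apart.

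**Figure D1:**
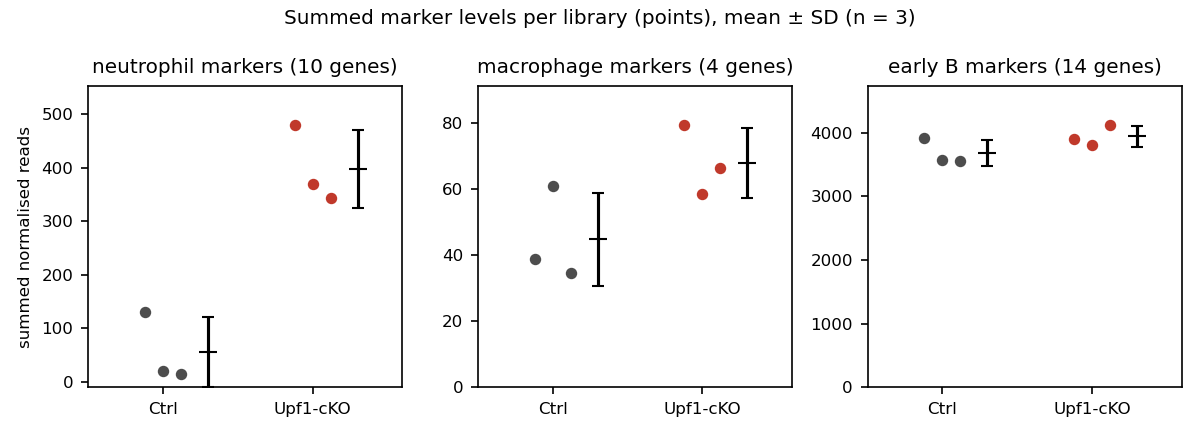
Summed normalised reads of neutrophil, macrophage and early B markers for Ctrl and Upf1-cKO libraries (points are libraries, bars are mean and SD of 3). The neutrophil sum was between 344 and 480 in the Upf1-cKO libraries, and Ctrl library 1 was the highest of the Ctrl libraries at 129.7.

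Of the 8 genes with a row, 6 were lower in the Upf1-cKO libraries (*Gclc*, *Nfe2l2*, *Gclm*, *Prdx1*, *Txn1* and *Keap1*), 0 were higher and 2 did not pass the test (*G6pdx* and *Hmox1*). Calls rest on limma with log2(value + 1), where the Benjamini-Hochberg adjusted p over all genes had to be under 0.05. Among all genes 25.0% were called lower and 27.7% higher. At an unadjusted p below 0.05, 7 were lower and 0 were higher (27.6% and 30.4% of all genes), and edgeR, DESeq2 and voom, run on recovered reads, each called 6 lower and 0 higher (24.9%, 24.4% and 24.9% of all genes lower). In 7 of the 8 every Upf1-cKO library was below every Ctrl library, a pattern held by 28.0% of all genes, and in 0 every Upf1-cKO library was above (30.9% of all genes). With 1 library left out at a time, the number called lower was between 4 (without Upf1-cKO library 1 or 3) and 7 (without Ctrl library 1), beside 21.4% to 24.95% of all genes. The median log2 fold change of the 8 was -0.40, beside 0.01 over all genes. Scaling to total reads moved the median of all genes to 0.19. Then 3 were lower (*Gclc*, *Nfe2l2* and *Prdx1*), beside 14.4% of all genes, and *Gclm*, *Txn1* and *Keap1* no longer passed. Total reads include the most abundant row, at 16.4% to 23.8% of reads in Ctrl and 13.8% to 16.5% in Upf1-cKO libraries. Log2 fold changes ran from -1.40 for *Gclc* to 0.23 for *Hmox1*, and the 95% interval of *Gclc* (-1.59 to -1.21) lay below that of *Nfe2l2* (-1.18 to -0.59), the next lowest.

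**Figure D2:**
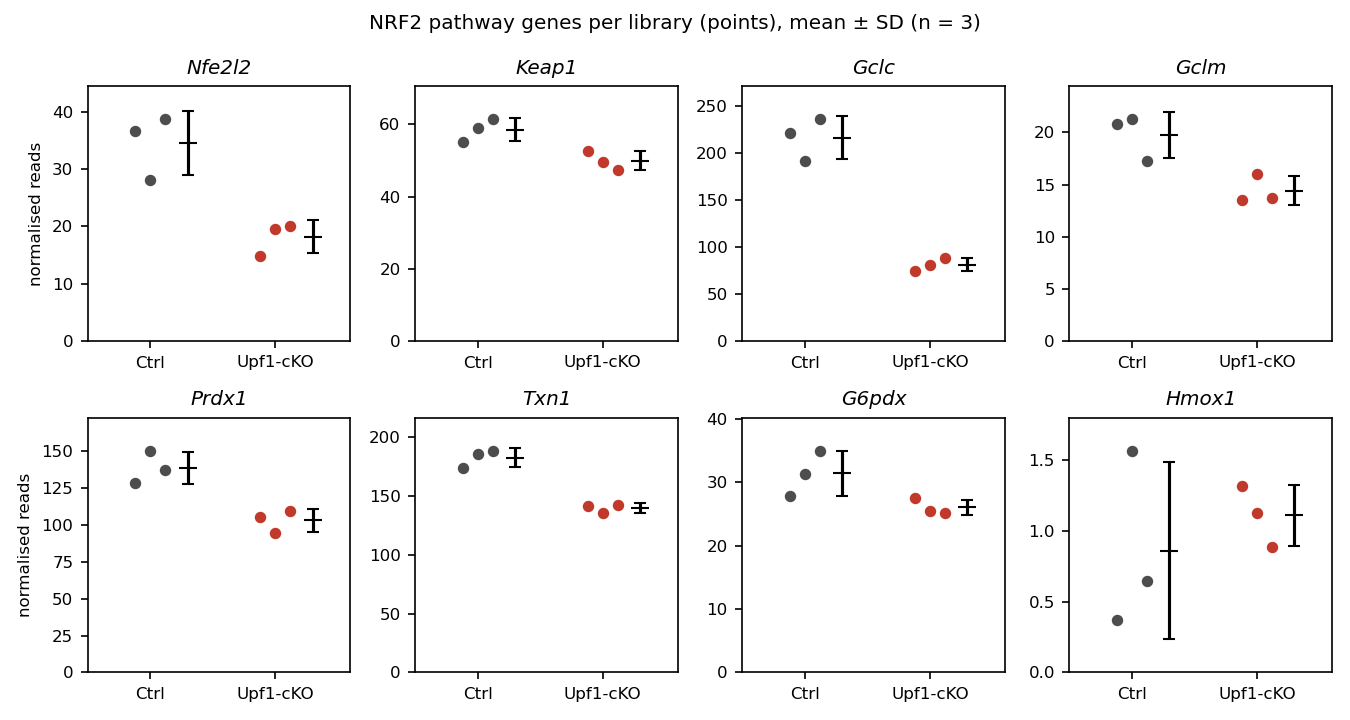
Normalised reads of the 8 genes in each Ctrl and Upf1-cKO library (points), with mean and SD of 3, each panel starting at 0. The groups are widest apart for *Gclc* and *Nfe2l2*, and overlap only for *Hmox1*.

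*Nfe2l2* (Entrez ID 18024, chromosome 2, 75675513 to 75704663, GRCm38), the transcription factor gene of the pathway, was at 36.6, 28.1 and 38.7 normalised reads in Ctrl libraries 1, 2 and 3 and at 14.9, 19.6 and 20.02 in Upf1-cKO libraries 1, 2 and 3. Every Upf1-cKO value was below the lowest Ctrl value, that of library 2. The mean of 34.5 ± 5.58 in Ctrl (SD, n = 3) fell to 18.2 ± 2.86 in Upf1-cKO libraries (SD, n = 3), which is 52.7% of the Ctrl mean. The change was -0.89 on the log2 scale (SE 0.14, adjusted p 3.35e-05), and it ran from -1.02 to -0.69 under 17 alternatives, in all of which it passed the test. Between 152 and 389 reads per library fell on the gene, whose annotated span overlaps no other.

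*Keap1* (Entrez ID 50868, chromosome 9, 21229730 to 21239332), the inhibitor of NRF2, was at 55.1, 58.95 and 61.4 in Ctrl and at 52.6, 49.5 and 47.4 in Upf1-cKO libraries. The groups did not overlap, but the gap between the nearest libraries was small. The log2 fold change was -0.23 (SE 0.091, adjusted p 0.0451). This call was lost with 8 of the 17 alternatives, among them each fit that left out a library other than Ctrl library 1 (adjusted p between 0.0559 and 0.165), and the log2 fold change was -0.025 when libraries were scaled to total reads. Within each library, *Nfe2l2* was at 0.664, 0.477 and 0.630 of the *Keap1* value in Ctrl and at 0.283, 0.396 and 0.422 in Upf1-cKO libraries. Multiplying a library by a factor leaves this ratio as it is. It was lower in every Upf1-cKO library (log2 ratio -0.69, exact two-sided permutation p 0.1, the smallest that 20 assignments of 6 libraries allow). The pair was chosen after the values were seen.

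The antioxidant response element has the core TGACNNNGC, and it was searched for on both strands in the 250 bases before the transcription start that RefSeq's promoters use (GRCm38.p6). A promoter was listed for 8 of the 10 genes, and *Hmox1* and *Gclc* had none. The core was found before *Nfe2l2*, *Gclm*, *Prdx1* and *G6pdx*, which makes 4 of the 6 genes that had both a promoter and a row, and it was not found before *Keap1* or *Txn1*. Of the promoters of genes in the table, 11.6% held it. The related core TGAGNNNGC, which is held by 16.1% of these promoters, was found before *Srxn1* alone, at 2 positions. The windows around the match are shown for the 3 genes that were lower and whose match lies outside annotated untranslated regions, on the strand of the gene, with the 9 bases of the core in capitals. They lie at chr2:75704855-75704913 (minus strand), chr3:122245383-122245471 (plus strand) and chr4:116685426-116685514 (plus strand).
Nfe2l2: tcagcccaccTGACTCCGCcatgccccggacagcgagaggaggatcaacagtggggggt
Gclm: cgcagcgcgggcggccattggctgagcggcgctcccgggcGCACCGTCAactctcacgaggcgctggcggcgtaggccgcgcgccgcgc
Prdx1: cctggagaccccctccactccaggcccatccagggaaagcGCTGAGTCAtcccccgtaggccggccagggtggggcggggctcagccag

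The core begins 240 bases before that start in *Nfe2l2* and reads in the direction of the gene. It begins 134 bases before it in *Gclm*, where the start lies inside the annotated span of the gene given below, and 133 before it in *Prdx1*, in both on the opposite strand, where it reads TGACGGTGC and TGACTCAGC. The match before *G6pdx* (TGACTGAGC on the opposite strand) begins 57 bases before this start. These are matches of letters, and no binding was measured.

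*Gclc* and *Gclm* encode the catalytic and the modifier subunit of glutamate-cysteine ligase, the rate-limiting enzyme of glutathione synthesis, and both were lower, by different amounts. *Gclc* (Entrez ID 14629, chromosome 9, 77754535 to 77794489) was at 222, 192 and 236 normalised reads in Ctrl libraries 1, 2 and 3 and at 74.2, 81.4 and 87.9 in the Upf1-cKO libraries. The lowest Ctrl library was above all Upf1-cKO libraries by more than 100 normalised reads. The Ctrl mean of 217 ± 22.5 (SD, n = 3) fell to 81.2 ± 6.84 (SD, n = 3), or to 37.5% of Ctrl. On the log2 scale the change was -1.40 (SE 0.09, adjusted p 5.24e-10), and it ran from -1.51 to -1.20 under the 17 alternatives, in all of which it passed the test. Of all genes, 1.52% were called lower with a log2 fold change at or below that of *Gclc*.

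*Gclm* (Entrez ID 14630, chromosome 3, 122245487 to 122267215) was at 20.8, 21.3 and 17.2 in Ctrl and at 13.5, 16.004 and 13.7 in Upf1-cKO libraries. The groups did not overlap, with Ctrl library 3 and Upf1-cKO library 2 nearest to each other. It passed the test at -0.43 on the log2 scale (SE 0.14, adjusted p 0.0127). It no longer passed without Upf1-cKO library 1 (adjusted p 0.0527), without Upf1-cKO library 3 (adjusted p 0.0506) or when libraries were scaled to total reads (log2 fold change -0.24, adjusted p 0.154). The locus overlaps 2 other annotated genes, *Gm46822* and *Gm6061*, and counting did not use strand. Within a library, *Gclc* was at 10.7, 9.03 and 13.7 times the *Gclm* value in Ctrl and at 5.49, 5.08 and 6.42 times in Upf1-cKO libraries. The ratio of catalytic to modifier subunit transcripts was thus lower in every Upf1-cKO library (log2 ratio -0.96, exact two-sided permutation p 0.1, the smallest possible here), a comparison chosen after the values were seen.

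*Prdx1* and *Txn1* encode peroxiredoxin 1, which reduces hydrogen peroxide, and thioredoxin 1, which returns it to its active form. *Prdx1* (Entrez ID 18477, chromosome 4, 116685599 to 116700000) was at 129, 150.5 and 138 in Ctrl and at 105, 94.6 and 109.6 in Upf1-cKO libraries. It changed by -0.43 on the log2 scale (SE 0.086, adjusted p 0.000385), it passed under all 17 alternatives (-0.53 to -0.22), and its locus overlaps *AV051173*. *Txn1* (Entrez ID 22166, chromosome 4, 57943373 to 57956411) was at 173.5, 186 and 188.5 in Ctrl and at 142, 135 and 142 in Upf1-cKO libraries. Neither gene had overlapping groups, and the Upf1-cKO means were 74.2% and 76.5% of Ctrl. The log2 fold change of *Txn1* was -0.38 (SE 0.075, adjusted p 0.000294), and it lost the threshold when libraries were scaled to total reads (-0.18, adjusted p 0.0729) and under no other alternative.

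*G6pdx* (Entrez ID 14381, chromosome X, 74409483 to 74428880), the first enzyme of the pentose phosphate pathway and a source of NADPH, was at 27.9, 31.4 and 35.0 in Ctrl and at 27.5, 25.5 and 25.2 in Upf1-cKO libraries. All Upf1-cKO values were below the Ctrl values, yet Ctrl library 1 and Upf1-cKO library 1 nearly touched. The log2 fold change was -0.26 (SE 0.11, adjusted p 0.0661, unadjusted 95% interval -0.49 to -0.018), and it passed without Ctrl library 1 (-0.34, adjusted p 0.0206), with median centring and with quantile normalization. The locus overlaps *Ikbkg*, and reads shared with the intronless copy of the gene could not be told apart.

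*Hmox1* (Entrez ID 15368, chromosome 8, 75093618 to 75100593), which breaks down heme, was scarcely detected. It had 3, 15 and 6 reads in Ctrl and 13, 12 and 10 reads in Upf1-cKO libraries, or between 0.372 and 1.57 normalised reads over all 6. Ctrl libraries spanned the Upf1-cKO values. The log2 fold change was 0.23 (SE 0.24, adjusted p 0.455), and its 95% interval from -0.29 to 0.74 leaves room for changes in either direction at this depth.

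**Figure D3:**
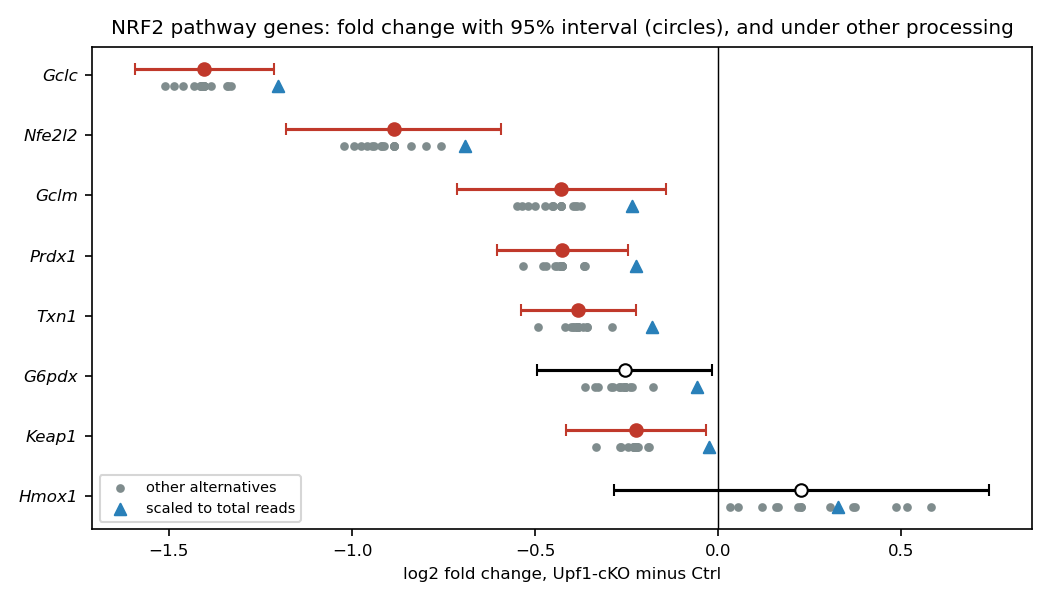
Log2 fold change (Upf1-cKO minus Ctrl) of the 8 genes, with 95% intervals from limma (circles, red where adjusted p is below 0.05), and below each the values under the alternatives (grey points) and with scaling to total reads (blue triangles). *Gclc* and *Nfe2l2* stay apart from 0 throughout, while *Keap1* and *G6pdx* come to -0.025 and -0.059 when scaled to total reads.

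Levels of different genes were compared per kilobase of annotated exon. In Ctrl libraries *Txn1* was highest, at 174 normalised reads per kilobase, followed by *Gclc* (57.5), *Prdx1* (45.7), *Keap1* (12.5), *G6pdx* (10.2), *Nfe2l2* (9.08), *Gclm* (3.14) and *Hmox1* (0.492). Of neighbours in this order, *G6pdx* (9.05 to 11.4 over libraries) and *Nfe2l2* (7.41 to 10.2) overlapped, and the others did not. In Upf1-cKO libraries *Gclc* stood below *Prdx1*, at 21.5 (19.7 to 23.3) against 33.9 (31.1 to 36.03) normalised reads per kilobase, and the rest of the order was as in Ctrl libraries.

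In the GENCODE M21 annotation 0 of the 10 has a transcript of the NMD class, whereas 28.9% of the 12155 genes in the table with a GENCODE model have at least 1. Isoforms were not measured, since reads were counted per gene.

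Genes around the pathway were then examined with lists written from general knowledge, 116 genes in all, of which 109 had a row. Over these, 30 were higher and 43 were lower, beside 27.7% and 25.0% of all genes. The split depended on scaling, with 38 higher and 24 lower when libraries were scaled to total reads (38.5% and 14.4% of all genes) and 24 higher and 53 lower with median centring (22.3% and 32.4% of all genes). Medians of these lists ran from -0.29 to 0.38, as plotted below, and differences between lists were not tested. The counts per list below stand beside the same shares of all genes, 27.7% higher and 25.0% lower.

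Among 16 genes that control NRF2 or share its binding sites, 9 were lower, 3 were higher and 4 did not pass (median log2 fold change -0.25). *Btrc*, the F-box protein that recognises NRF2 phosphorylated by GSK3, fell from 176 ± 4.91 (SD, n = 3, as for all groups below) to 48.9 ± 3.83 (log2 fold change -1.83, adjusted p 5.07e-12), and its locus overlaps *Gm18104* and *Gm6807*. *Bach2* encodes a transcriptional repressor present in B lineage cells, which binds elements related to those of NRF2. It fell from 878 ± 97.1 to 296 ± 13.7 (-1.56, adjusted p 2.45e-11), and its locus overlaps *Bach2os*. *Mafg*, a small MAF partner, rose from 8.85 ± 2.10 to 17.7 ± 1.51 (0.94, adjusted p 0.000111). *Nfe2*, the related factor of blood cells, rose from 3.06 ± 1.11 to 9.77 ± 1.88 (1.43, adjusted p 2.29e-05), and it is also expressed in myeloid cells, whose neutrophil markers were higher in the same libraries. *Cul3* was lower (-0.36, adjusted p 0.00115) and *Nfe2l1*, a close relative of *Nfe2l2*, was higher (0.36, adjusted p 0.0012), both named after their values were seen, and *Cul3* lost the threshold when libraries were scaled to total reads (-0.16, adjusted p 0.162).

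In the glutathione list, 8 of 22 genes with a row were higher, 5 were lower and 9 did not pass (median log2 fold change 0.38). While both subunits of the first step of synthesis were lower, *Gss*, the enzyme of the following step, which overlaps *Gssos2* and was chosen after its values were seen, rose from 10.95 ± 1.24 to 17.3 ± 0.960 (0.61, adjusted p 0.00123). *Gsr*, which recycles oxidised glutathione and is a known NRF2 target, was at 14.7, 14.6 and 14.6 in Ctrl and at 38.2, 37.1 and 31.3 in Upf1-cKO libraries (1.22, adjusted p 1.02e-07). *Gsr* thus moved against *Gclc*, and its locus overlaps *Gm24727* and *Gm17803*. *Chac1*, an enzyme that breaks glutathione down, had 3 reads in all over the Ctrl libraries, each of them in library 2, and 215 over the Upf1-cKO libraries, a ratio of 63.4 per effective library size (exact 95% interval 21.4 to 310, counting error only). Without Ctrl library 2 the other Ctrl libraries held 0 reads, and a floor of 3 reads over them gives at least 42.1-fold higher. *Chac1* was above 0.5 only in the Upf1-cKO libraries and entered the table through them, so these values are a description. Of the microsomal glutathione transferases, *Mgst2* rose from 7.61 ± 0.334 to 19.96 ± 1.06 (1.28, adjusted p 4.15e-07) and *Mgst1* fell from 12.4 ± 2.54 to 5.91 ± 0.595 (-0.94, adjusted p 0.000187).

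**Figure D4:**
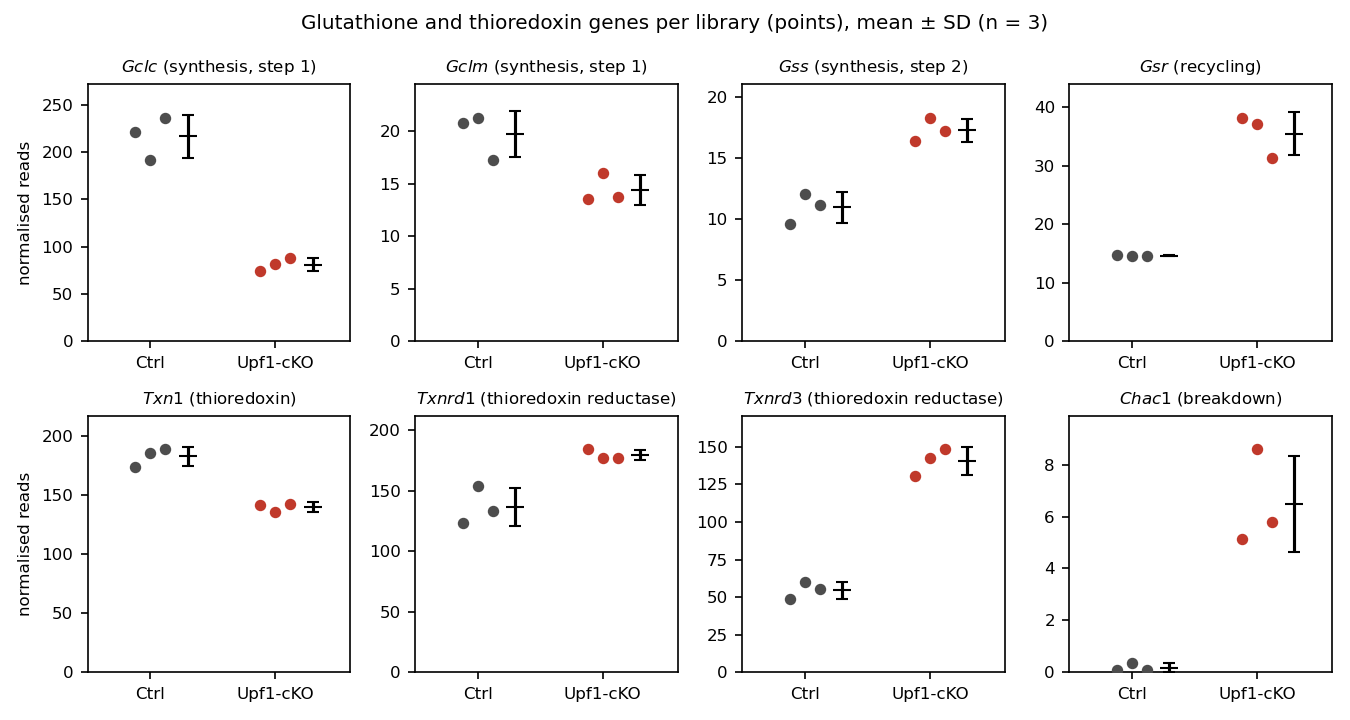
Normalised reads per library (points, with mean and SD of 3) of glutathione and thioredoxin genes, each panel on its own scale. Shown are genes of glutathione synthesis, recycling and breakdown, thioredoxin, and the reductases *Txnrd1* and *Txnrd3* (*Txnrd2*, which did not pass, is not shown). *Gclc*, *Gclm* and *Txn1* were lower, and *Gss*, *Gsr*, *Txnrd1*, *Txnrd3* and *Chac1* higher, in every Upf1-cKO library than in every Ctrl library.

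In the thioredoxin and peroxiredoxin list, 5 of 18 genes were higher, 7 were lower and 6 did not pass (median log2 fold change -0.10). *Txnrd3*, a thioredoxin reductase, rose from 54.7 ± 5.64 to 140.3 ± 9.22 (1.35, adjusted p 1.06e-09). *Txnrd1*, the cytosolic reductase of *Txn1* and a known NRF2 target, was at 123, 154 and 133 in Ctrl and at 185, 177 and 177 in Upf1-cKO libraries (0.40, adjusted p 0.000652, chosen after its values were seen). Within a library it stood at 0.710, 0.829 and 0.706 of the *Txn1* value in Ctrl and at 1.30, 1.31 and 1.25 in Upf1-cKO libraries (log2 ratio 0.79, exact two-sided permutation p 0.1, the smallest possible here). *Txnrd2*, the mitochondrial reductase, also chosen after its values were seen, was at 14.7 in Ctrl and 14.5 in Upf1-cKO libraries and did not pass (-0.021, adjusted p 0.913). The sestrins, stress proteins that also act on growth signalling, moved in both directions. *Sesn2* rose by a log2 fold change of 1.49 (adjusted p 3.12e-06) and *Sesn1* by 0.70 (adjusted p 5.35e-06), and *Sesn3* fell by 0.75 (adjusted p 8.84e-05).

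Among 14 genes of NADPH supply with a row, 7 were lower, 2 were higher and 5 did not pass (median log2 fold change -0.23). *Pgls* and *Pgd*, the enzymes that follow *G6pdx* in the oxidative branch of the pentose phosphate pathway, were both lower, by -0.79 (adjusted p 0.000829) for *Pgls* and -0.40 for *Pgd* (adjusted p 0.00132). *Tkt*, transketolase of the other branch, fell from 305 ± 31.95 to 181 ± 7.71 (-0.75, adjusted p 4.42e-07). *Pgd* lost the threshold when libraries were scaled to total reads (-0.19, adjusted p 0.0817). *Me3*, a mitochondrial malic enzyme, had 35 reads over the Ctrl libraries and 0 over the Upf1-cKO libraries, which makes it at least 13.2-fold lower against a floor of 3 reads over the group. It was above 0.5 only in the Ctrl libraries and so entered the table through the group in which it was high, and these values are a description.

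In the heme and iron list 7 of 15 genes were lower, 2 were higher and 6 did not pass (median log2 fold change -0.29). *Blvrb*, a biliverdin reductase, fell from 8.55 ± 1.56 to 2.96 ± 0.533 (-1.26, adjusted p 2.84e-05). *Blvra*, the other biliverdin reductase of the list, did not pass (0.067, adjusted p 0.719, chosen after its values were seen). The iron importers *Tfrc*, the transferrin receptor, and *Slc11a2* fell from 527 ± 13.03 to 282 ± 17.9 (-0.90, adjusted p 7.49e-09) and from 67.8 ± 8.80 to 33.3 ± 2.68 (adjusted p 2.95e-07). Erythroid cells make much heme, and of the 7 erythroid markers with a row *Slc4a1* (-0.86, adjusted p 0.00692) and *Ank1* (-0.63, adjusted p 0.0154) were also lower and 5 did not pass. The part of these cells was not tested. *Fth1*, the ferritin heavy chain, was at 109.5, 108 and 179 in Ctrl and at 48.3, 81.2 and 55.3 in Upf1-cKO libraries (-1.08, adjusted p 0.0349). This call was lost without Ctrl library 1, Ctrl library 2, Upf1-cKO library 1 or Upf1-cKO library 3 (adjusted p between 0.0618 and 0.0951) and with scaling to total reads (adjusted p 0.0794).

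Of 14 quinone and xenobiotic genes with a row, 6 were lower, 4 were higher and 4 did not pass (median log2 fold change -0.23). The enzymes *Ephx1*, an epoxide hydrolase, and *Ptgr1*, a reductase of reactive lipids, had log2 fold changes of -1.85 for *Ephx1* (adjusted p 1.22e-07) and -0.87 for *Ptgr1* (adjusted p 9.46e-08). The export pumps *Abcc1* and *Abcc4* rose, from 10.9 ± 1.64 to 35.1 ± 1.94 (1.61, adjusted p 9.34e-09) and from 13.6 ± 0.757 to 35.98 ± 1.52 (1.34, adjusted p 2.04e-08).

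**Figure D5:**
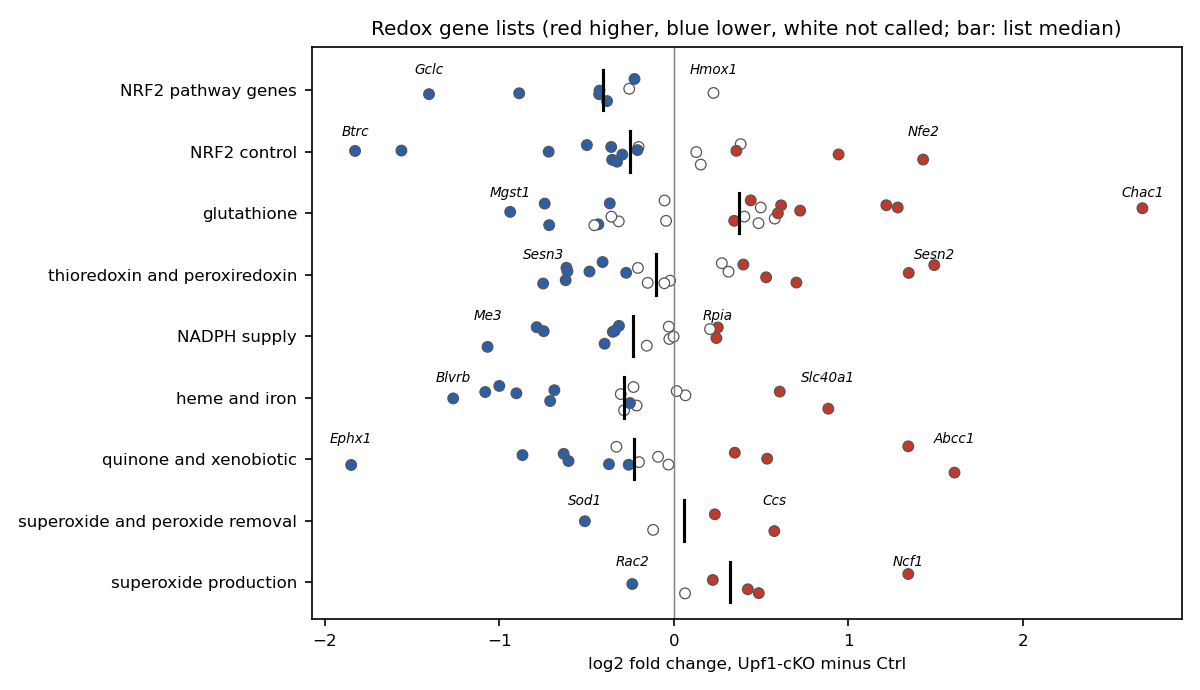
Log2 fold change (Upf1-cKO minus Ctrl) of the 8 NRF2 pathway genes and of the genes of 8 wider lists, each point a gene, with the list median as a bar and the lowest and highest gene of each list named. The glutathione and superoxide production lists have medians above 0.3, and the NRF2 pathway genes have the lowest median, at -0.40. The wider lists leave out the NRF2 pathway genes, so *Gclc* and *Gclm* are not in the glutathione list.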

How the data were processed

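RNA from sorted early LPre-B cells was depleted of ribosomal RNA. Per the study's methods and processing notes, single-end reads were trimmed with cutadapt 4.0, mapped to mm10 with HISAT2 without use of strand, counted per gene with featureCounts 2.0.1 and processed with limma 3.48.0. The values the authors deposited are a linear signal, equal to reads plus 0.5 over an effective library size, and whole reads were recovered for 100% of values (tolerance 0.05 of a read). Columns summed to between 922600 and 1112739.

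RefSeq GRCm38.p6 named 13008 genes. Exon lengths came from GENCODE M21. The test was limma 3.58.1 (R 4.3.3) on log2(value + 1), with trended, robust eBayes and group as the only term, which understates changes of low genes. It was checked on simulated counts. Alternatives were a replicate block, plain eBayes, voom, edgeR 4.0.16, DESeq2 1.42.0, total-read, median and quantile scaling, a pseudocount of 0.1, minimum mean log2 values of 1 and 3, and leaving out each library.

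The genes and lists were chosen with earlier results of these data known. Named were the 10 genes, *Upf1*, the 4 called genes of each list that changed most, early B markers, up to 3 called markers of each other cell type by mean level, and the 3 genes nearest in profile to *Nfe2l2*. Others are marked as chosen after their values were seen. Replicates were separate samples, and the methods call them biological replicates.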

Additional observations from a re-analysis of the deposited data

How the results depend on the processing

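When libraries were scaled to total reads, the count of lower genes among the 8 NRF2 pathway genes went from 6 to 3. That of the wider lists went from 43 to 24, and the share of all genes called lower went from 25.0% to 14.4%. With 1 library left out at a time there were between 4 and 7 lower and 0 higher NRF2 pathway genes, and between 36 and 45 lower and 25 to 31 higher genes in the wider lists, beside 21.4% to 24.95% of all genes lower and 24.01% to 27.1% higher. With the replicate block 5 of the 8 were lower, as *Keap1* did not pass (adjusted p 0.0647), and 29 and 43 genes of the wider lists were higher and lower (27.3% and 24.7% of all genes). Correlations of same-numbered libraries were 0.126, -0.063 and -0.079 over 9202 genes, and those of the other pairs ran from -0.196 to 0.256. Same-numbered libraries carry neighbouring sample numbers, and with 3 libraries per group these correlations cannot decide whether samples were paired. None of the 8 genes changed direction under the alternatives in which it was fitted. *Hmox1* could not be fitted under either minimum of the mean log2 value, and its depth of 3 to 15 reads per library limits what can be said of it.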

Other observations

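Genes that make or remove superoxide were counted in the wider lists but not yet described. Of the 6 genes of the phagocyte NADPH oxidase and its activator, 4 were higher, 1 was lower and 1 did not pass in the Upf1-cKO libraries (median log2 fold change 0.32), where 27.7% of all genes were higher and 25.0% lower. *Ncf1*, a cytosolic subunit, was at 8.55, 6.01 and 7.40 normalised reads in Ctrl libraries 1, 2 and 3 and at 23.6, 19.5 and 17.2 in Upf1-cKO libraries 1, 2 and 3 (log2 fold change 1.34, SE 0.16, adjusted p 1.46e-06). *Ncf4* rose by a log2 fold change of 0.49 (adjusted p 0.00382) and *Cybb* by 0.42 (adjusted p 0.00922), and *Cybb* no longer passed without Upf1-cKO library 1 (0.31, adjusted p 0.083). *Rac2*, the GTPase that activates the oxidase, was the lower gene (-0.24, adjusted p 0.0254), but its groups overlapped and 7 of the 17 alternatives lost the call (adjusted p up to 0.756). These genes are also expressed in neutrophils, whose summed markers were between 344 and 480 in Upf1-cKO and between 14.99 and 129.7 in Ctrl libraries, and the part of such cells was not tested. Of 4 genes for removal, 2 were higher and 1 was lower. *Sod1*, the cytosolic superoxide dismutase, fell from 175 ± 23.9 to 122 ± 1.34 (SD, n = 3 per group, -0.51, adjusted p 0.000124), while *Ccs*, its copper chaperone, rose from 12.3 ± 1.77 to 18.8 ± 1.26 (0.58, adjusted p 0.00208). *Cat*, catalase, was higher by 0.23 (adjusted p 0.027), a call that 6 of the 17 alternatives lost (adjusted p up to 0.221).

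The genes with the profile nearest to that of *Nfe2l2* over the 6 libraries, by Euclidean distance of centred log2 values among 8632 other genes with a mean of at least 10 normalised reads, were *Trim11* (distance 0.272, log2 fold change -0.79), *H2bc3* (0.276, -0.998) and *Cyb561d1* (0.277, -0.97). Among the NRF2 pathway genes *Gclc* was nearest to it, at a distance of 0.669 and rank 884.

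The 7 erythroid markers with a row summed to between 97.8 and 121 in Ctrl and between 104 and 113 in Upf1-cKO libraries. *Car2*, which did not pass and was named after its values were seen, made up 82.4 of the Ctrl and 90.2 of the Upf1-cKO mean. The 2 T and NK markers with a row summed to no more than 1.59 in Ctrl and 5.27 in Upf1-cKO libraries (1 higher), and 2 of 3 plasmacytoid dendritic cell markers were higher, among them *Bst2* (1.12), which is also induced by interferon.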
